A study of Homo sapiens with 16 samples.

Results

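The 4 genes described here are TOP1, TOP2A and TOP2B, which encode the topoisomerases that relieve supercoils in nuclear DNA, and TDP2, which encodes an enzyme that repairs DNA broken by topoisomerase II. They were chosen by name, as the topoisomerase genes of the class that the drug in this study acts on and the genes beside them in the same pathway, and their positions on hg19 were given with the choice. TOP2A spans chr17:38544773-38574202 on the minus strand (29.4 kb), TOP2B chr3:25639396-25706398 on the minus strand (67.0 kb), TOP1 chr20:39657462-39753126 on the plus strand (95.7 kb) and TDP2 chr6:24650205-24667115 on the minus strand (16.9 kb). In the study, ChIP-seq, which sequences the DNA pulled down with a protein, located RNA polymerase II (Pol II) and the TOP2A protein. The cells were wild-type hTERT RPE-1, a human line from the retinal pigment epithelium that telomerase makes immortal. All cells were held for 48 h in medium with 0.1% serum. The Pol II libraries numbered 3 after 30 min of merbarone, 2 after 1 h of merbarone, both at 200 uM, and 6 without the drug, of which 3 had vehicle (DMSO) for 30 min and 3 were untreated. TOP2A was mapped in 2 untreated libraries, and 3 IgG libraries were not analysed here. The 6 libraries without merbarone share 1 peak list, here the control, and no vehicle library matches the 1 h time.

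Topoisomerase I cuts 1 strand of the duplex and lets it turn, so it removes supercoils ahead of and behind a moving polymerase. Topoisomerase II cuts both strands and passes another duplex through the gap. It has 2 forms in human cells: TOP2A is made mostly in dividing cells, while TOP2B is made in dividing and resting cells alike. TDP2 removes the tyrosine that stays bound to the 5′ end of DNA when topoisomerase II is trapped on it, so that the break can be joined. Merbarone blocks the cycle of topoisomerase II without trapping the enzyme on cut DNA.

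The values are intervals called as bound, 1 list per condition. No value has a spread between replicates, read depth is unknown and peaks carry no height, so there is no test and differences are between lists. Cover is the length of a window under Pol II peaks, in bp or as a percentage of the window. A rise or a fall in cover means a change of at least 10 percentage points of the window. Over the whole window of a gene, from 2 kb upstream to 5 kb downstream, it means at least 1.5 times the control or at most the control divided by 1.5. Of 87911 control, 85990 30 min and 81816 1 h Pol II peaks, 23, 40 and 32 lay in the windows of these genes, and 2 of 1840 TOP2A peaks did. The control, 30 min and 1 h lists covered 42.8, 47.7 and 58.3 Mb of the genome, so the ratio to control was 1.11 at 30 min and 1.36 at 1 h.

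The 250 bases before each gene start are shown because each gene had a Pol II peak over its start in all 3 lists. They are RefSeq sequences of GRCh38.p14, taken at chr17:40417897-40418146 on the minus strand for TOP2A, chr3:25664908-25665157 on the minus strand for TOP2B, chr20:41028572-41028821 on the plus strand for TOP1 and chr6:24666900-24667149 on the minus strand for TDP2. The peaks are on hg19, and no peak edge was placed on these letters. The spans of TOP1, TOP2A and TDP2 differ in length between the builds. Their RefSeq starts were therefore not shown to be the starts from which the peaks were measured. Capitals mark CCAAT, the motif bound by the factor NF-Y, and GGGCGG, the motif bound by Sp1, on either strand, and no copies overlap.
TOP2A: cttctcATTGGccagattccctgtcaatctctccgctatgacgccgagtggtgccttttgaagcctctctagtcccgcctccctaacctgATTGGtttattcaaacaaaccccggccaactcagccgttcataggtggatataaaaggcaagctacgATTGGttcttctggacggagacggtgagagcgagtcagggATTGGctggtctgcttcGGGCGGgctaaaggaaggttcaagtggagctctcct
TOP2B: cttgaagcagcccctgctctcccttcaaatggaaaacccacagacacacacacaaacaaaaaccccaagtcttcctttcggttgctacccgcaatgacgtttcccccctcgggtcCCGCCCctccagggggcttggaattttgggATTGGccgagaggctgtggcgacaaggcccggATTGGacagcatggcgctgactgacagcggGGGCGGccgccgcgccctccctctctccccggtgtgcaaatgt
TOP1: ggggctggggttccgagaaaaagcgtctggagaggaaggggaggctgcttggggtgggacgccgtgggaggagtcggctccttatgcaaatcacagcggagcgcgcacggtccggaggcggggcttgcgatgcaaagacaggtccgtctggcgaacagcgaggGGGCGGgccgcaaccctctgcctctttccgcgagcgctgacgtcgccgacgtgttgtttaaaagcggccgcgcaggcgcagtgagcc
TDP2: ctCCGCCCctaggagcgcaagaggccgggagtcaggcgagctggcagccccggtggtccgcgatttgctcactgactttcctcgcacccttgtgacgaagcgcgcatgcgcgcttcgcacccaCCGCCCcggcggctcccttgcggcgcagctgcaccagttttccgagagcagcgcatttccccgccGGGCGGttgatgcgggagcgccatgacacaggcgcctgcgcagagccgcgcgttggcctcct

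The CCAAT motif was found before the most upstream starts of both topoisomerase II genes. TOP2A held 4 copies, 244, 160, 93 and 53 bases before the start, all read as ATTGG on the coding strand. TOP2B held 2 copies, the nearer 73 bases before the start, also as ATTGG, while TOP1 and TDP2 held none. The 250 bases before another RefSeq start of TOP2B, 535 bp into the gene, held no CCAAT and 1 GGGCGG, and 78.8% of them were G or C. Among the same 250 bases of 35116 RefSeq promoters, 32.0% held at least 1 copy, 9.53% at least 2 and 0.874% at least 4. GGGCGG was found once in TOP2A and in TOP1, in 2 copies before the upstream start of TOP2B and in 3 copies in TDP2, and 42.6% of promoters held at least 1. TATAAA, the core of the TATA box, was found in TOP2A alone of the 4, 111 bases before the start, and in 10.7% of all promoters on either strand. The share of G and C was 53.2% in TOP2A, 61.2% in TOP2B, 66.8% in TOP1 and 70.0% in TDP2, against a median of 58.0% over all promoters. A motif here is a match of letters, not a measured binding site.

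In starved cells without the drug, Pol II peaks lay over the start of all 4 genes and were almost absent from their bodies. A stretch without a called peak is not shown to be free of Pol II. The peak over the start was 1758 bp wide at TOP2B, 1266 bp at TDP2, 1143 bp at TOP2A and 1113 bp at TOP1. These were wide peaks, since 90.0% to 96.0% of all control peaks were narrower. The peak over TOP2A ran from 453 bp before the start to 689 bp after it, so this gene of dividing cells carried Pol II at its start in cells held in low serum. The body, from 1 kb past the start to the gene's end, was covered over 1.09% of its length in TOP2A, 0.899% in TDP2, 0.894% in TOP2B and 0.0739% in TOP1. The longest stretch of body with no control peak was 94.6 kb in TOP1, 59.5 kb in TOP2B, 25.8 kb in TOP2A and 10.3 kb in TDP2. Pol II peaks were found again past the ends of the genes. In the 5 kb downstream, control peaks covered 1759 bp at TOP2B, 1752 bp at TOP2A, 1405 bp at TOP1 and 319 bp at TDP2.

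**Figure D1:**
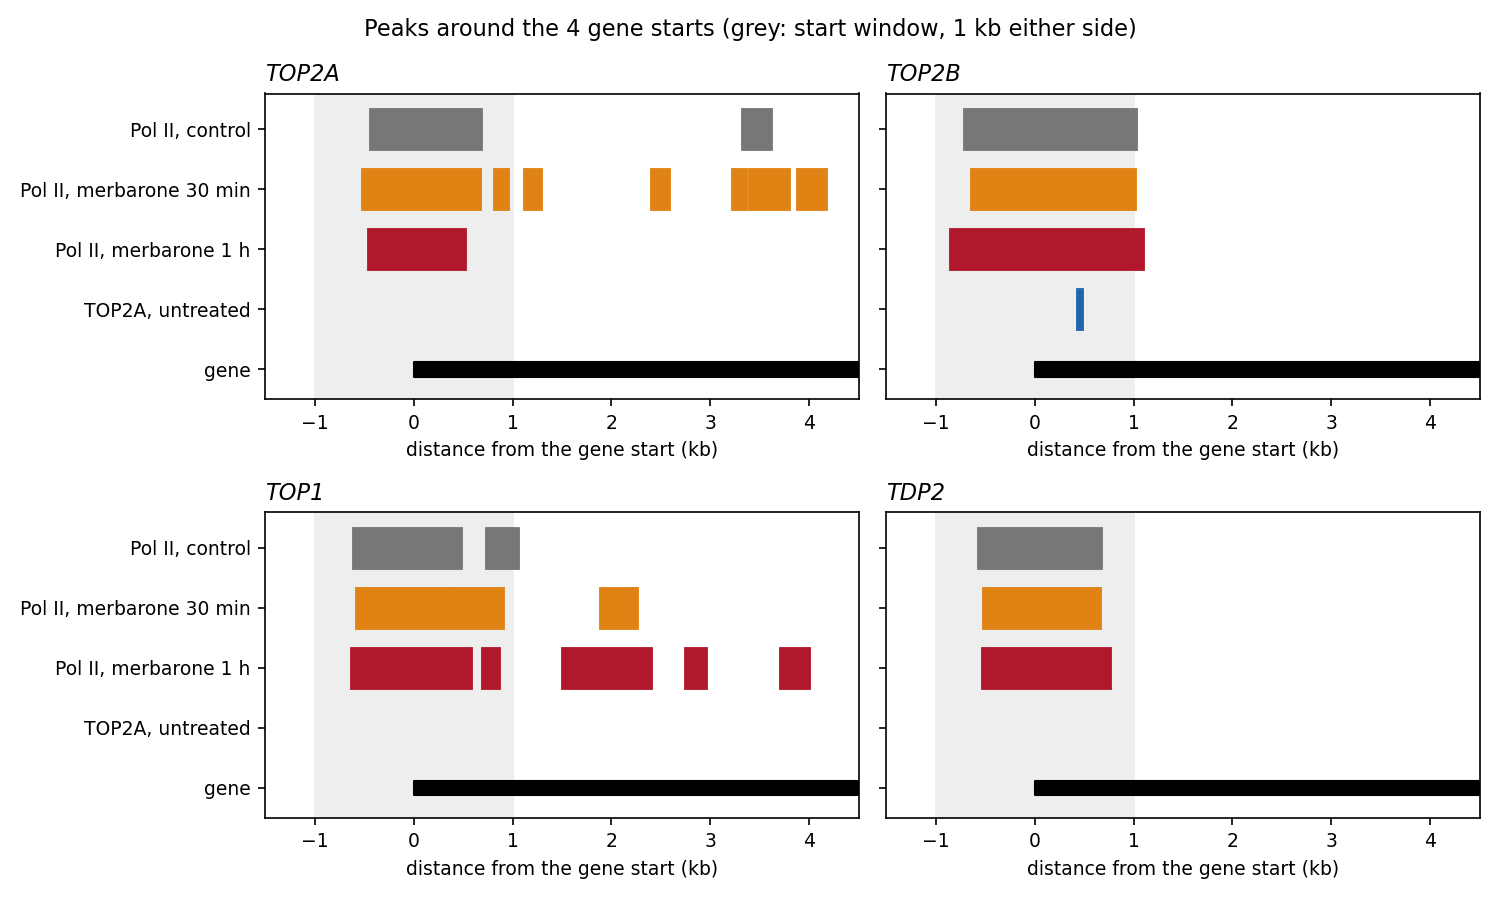
Peaks around the starts of the 4 genes, by distance from the start in kb along the direction of transcription; bars are peaks of the control, 30 min and 1 h Pol II lists and of the TOP2A list, the black bar is the gene, and grey marks 1 kb either side of the start. The peak over each start is present in all 3 Pol II lists, and the 73 bp TOP2A peak lies inside it at TOP2B alone.

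The peaks over the 4 starts were still there after merbarone, with edges, as called, at most 160 bp from where they lay in control. The width at TOP2A, 1143 bp in control, measured 1214 bp at 30 min and 1001 bp at 1 h, and the like widths at TOP2B were 1758, 1680 and 1979 bp. At TOP1 they were 1113, 1012 and 1239 bp, and at TDP2 1266, 1209 and 1319 bp. The TOP1 peak at 30 min ended 420 bp past the start, and a second peak of 492 bp ran from 422 to 913 bp. Its width there thus depends on how peaks were split, and with the 2 joined it would reach past the control edge at 489 bp. The start peak of TOP2A was narrower at 1 h than in control, and those of TOP2B, TOP1 and TDP2 were wider, as peaks were in the lists at large, with a median width of 347 bp at 1 h against 242 bp in control. Taken over 1 kb either side of the start, control peaks took up 1143 bp at TOP2A, those at 30 min 1376 bp and those at 1 h 1001 bp. Its gain of 11.6 points at 30 min was the only change at a start that reached 10 points. Of this net gain of 233 bp, 162 bp came from 1 peak that began 804 bp past the start. The gain was 3.55 points with peaks under 300 bp left out and 4.70 points over 500 bp either side. At the TOP2B start the 3 lists gave cover of 86.4%, 82.5% and 93.5%, at TOP1 69.8%, 75.2% and 71.7%, and at TDP2 63.3%, 60.4% and 65.9%.

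Windows placed on wide control peaks all over the genome give the background for these starts. The median change at the 4 starts was 1.27 points at 30 min and 2.27 points at 1 h. In 10440 windows of 2 kb centred on control peaks of at least 1 kb, the median change was 0 points at 30 min and 1.70 points at 1 h. Of these windows, 11.4% rose and 10.4% fell at 30 min, against 1 rise and no fall among the 4 genes. At 1 h 22.9% rose and 5.87% fell, against none of the 4 in either direction. The background windows were centred on the middle of a peak and not on a gene start. They were not matched to the control cover of the 4 starts, and a window filled by a control peak could not rise. With the start window widened to 2 kb either side, the change at TOP1 at 1 h was 11.9 points, because the peak that began 1493 bp past its start then fell partly inside.

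**Figure D2:**
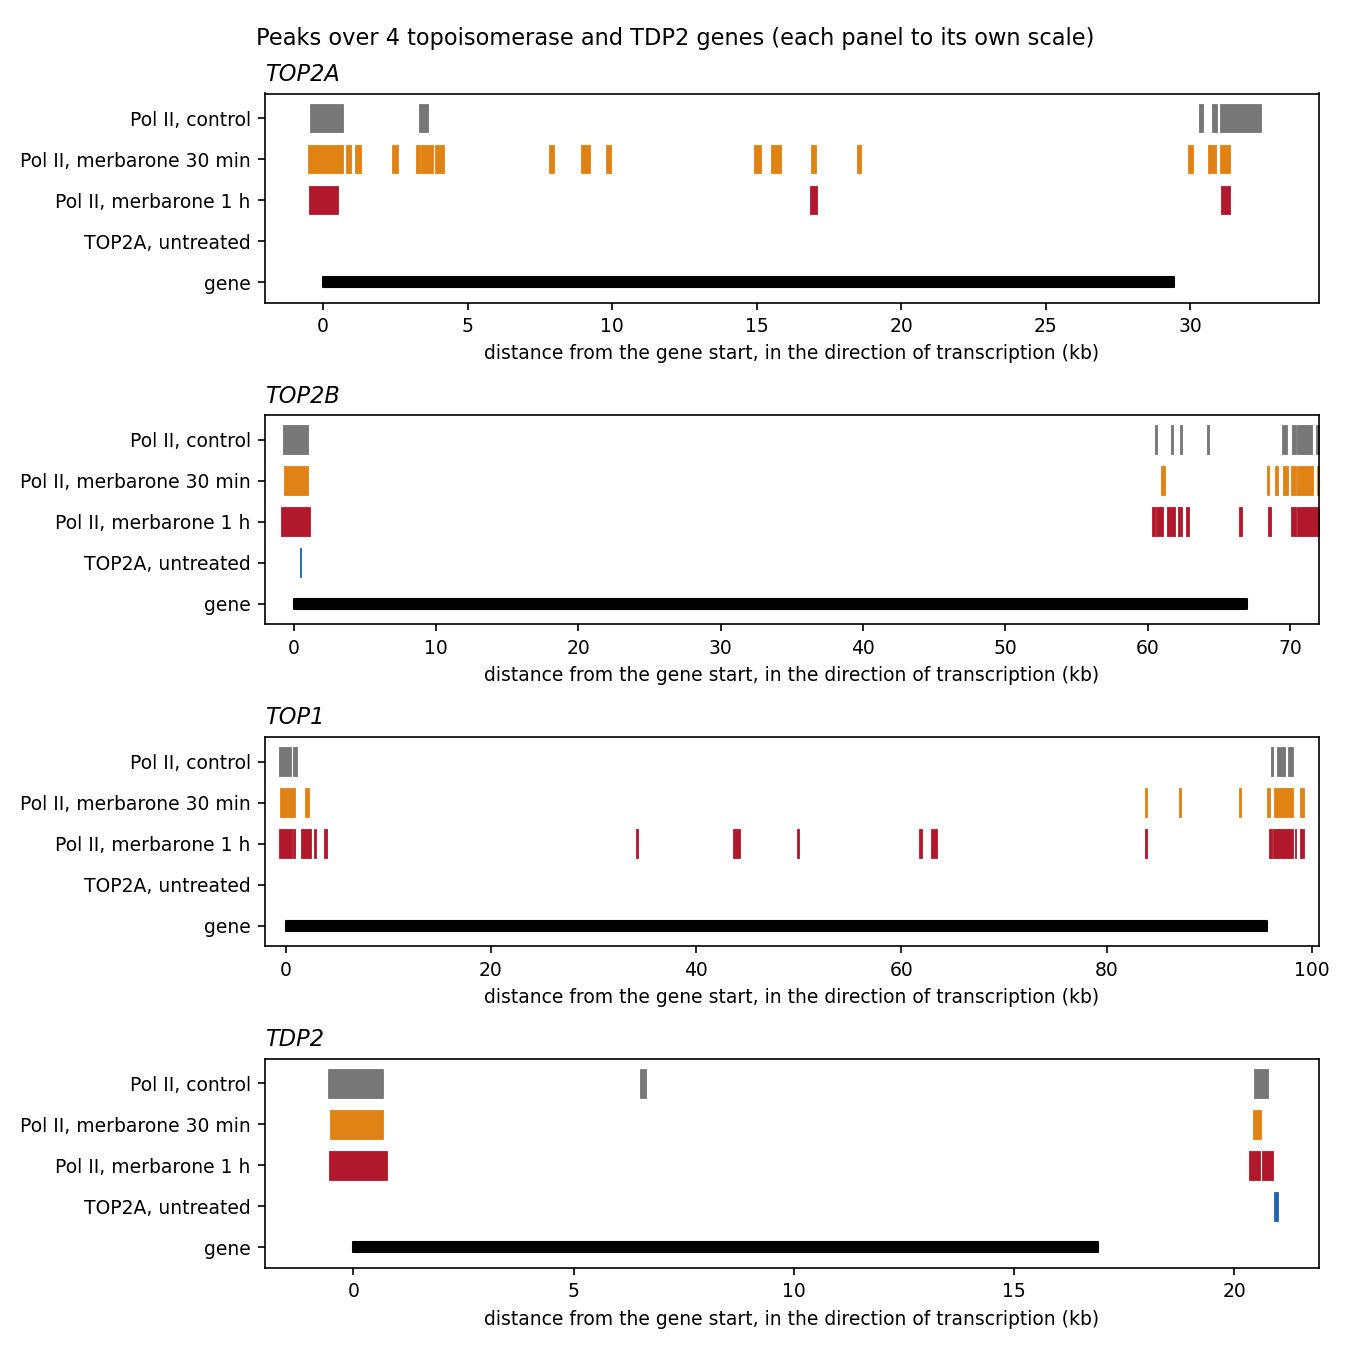
All peaks from 2 kb upstream to 5 kb downstream of each gene, by distance from the start in kb, each panel to its own scale; rows are the control, 30 min and 1 h Pol II lists, the TOP2A list and the gene. The body of TOP2A holds 12 Pol II peaks at 30 min and 1 at 1 h and in control, while that of TOP1 holds 9 at 1 h.

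TOP2A, the gene of the form of the enzyme tied to cell division, had Pol II peaks along much of its body at 30 min and few before or after. The control list had 1 Pol II peak in the body, the 30 min list 12 and the 1 h list 1. The covered length there was 311 bp without merbarone, 2884 bp at 30 min and 243 bp at 1 h, out of 28.4 kb. The change at 30 min was 9.05 points, just under 10, and it ranged from 3.92 points without peaks under 300 bp to 18.2 points with peaks joined within 1 kb. At 30 min the peaks reached from 1105 bp to 18612 bp past the start, and the last 10817 bp of the body had none in any list. With the body cut into 4 equal pieces, cover at 30 min was 1459 bp in the first, 741 bp in the second and 684 bp in the third, against 311, 0 and 0 bp in control. The single control peak, 311 bp wide at 3312 bp past the start, overlapped 2 peaks at 30 min and none at 1 h. The single peak at 1 h, 243 bp wide at 16833 bp past the start, lay over a peak of 172 bp at 30 min.

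Past the end of TOP2A Pol II cover fell at both times. Of the 5000 bp downstream, 1752 bp lay under control peaks, 758 bp (15.2%) under peaks at 30 min and 281 bp (5.62%) under peaks at 1 h. The change was -19.9 points at 30 min and -29.4 points at 1 h. Most of it was 1 peak of 1429 bp in control, from 1590 to 3018 bp past the gene's end. At 30 min a peak of 343 bp was left of it, from 1603 to 1945 bp, and at 1 h a peak of 281 bp, from 1645 to 1925 bp. What was left lay in the part nearest the gene. In the first 2 kb past the end the change was 1.2 points at 30 min and -22.7 points at 1 h. RefSeq lists no other gene within 5 kb downstream of TOP2A on GRCh38. Among 41966 tiles of 5 kb with a peak in either list, 4.32% fell and 13.8% rose at 30 min. At 1 h 2.95% of 45236 tiles fell and 26.6% rose. Tiles with little or no control cover were counted too, and such tiles could not fall by this measure. The tiles were not matched to the control cover downstream of TOP2A. The shares that fell therefore cannot tell how rare the fall at TOP2A was among windows of like control cover. Of the 4 genes, TOP2A alone fell downstream at either time, TOP1 and TOP2B rose at 30 min, and TOP1 rose at 1 h. TDP2, with 6.38% in control, could not fall by 10 points.

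Over the whole TOP2A window the 2 times thus lay on opposite sides of the control. Peaks took up 3206 bp without merbarone, 5018 bp at 30 min and 1525 bp at 1 h, ratios of 1.57 and 0.476. The ratio at 30 min rested on narrow peaks and was 1.03 when peaks under 300 bp were left out. Tiles of 50 kb whose control cover lay in the range of the 4 genes, from 1728 to 4077 bp, numbered 3240 and had median ratios of 1.08 and 1.26. Of these tiles 13.1% were covered at least 1.5 times as much at 30 min as in control, and 2.81% fell by this measure at 1 h. The course that TOP2A took, a rise at 30 min and a fall at 1 h, was met in 11 tiles (0.340%). At 30 min 3.83% of tiles fell, and none of the 4 genes did. The tiles differ in length from the gene windows, and this comparison was set up after the course of TOP2A was known.

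Most of the peaks found at TOP2A at 30 min and not in control were absent from the 1 h list. From 2 kb upstream to 5 kb downstream, 12 peaks at 30 min overlapped no control peak, and 1 of them (8.33%, 95% Wilson interval 1.49 to 35.4) overlapped a peak at 1 h. Over the whole list the share was 53.8% of 29364 such peaks. At TOP1 it was 5 of 7 and at TOP2B 2 of 3, and TDP2 had no such peak. The 12 peaks at TOP2A were 150 to 351 bp wide, and 2 of them were narrower than 159 bp, the smallest width in the 1 h list. Their median width was 185 bp, against 277 bp over all peaks at 30 min. The share over the whole list was not matched for width. In the other direction, 3 of 11 peaks at TOP1 that were found at 1 h and not in control overlapped a peak at 30 min, against 30.9% of 36092 over the whole list. Intervals cover counting only, and peaks of 1 gene are not independent.

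**Figure D3:**
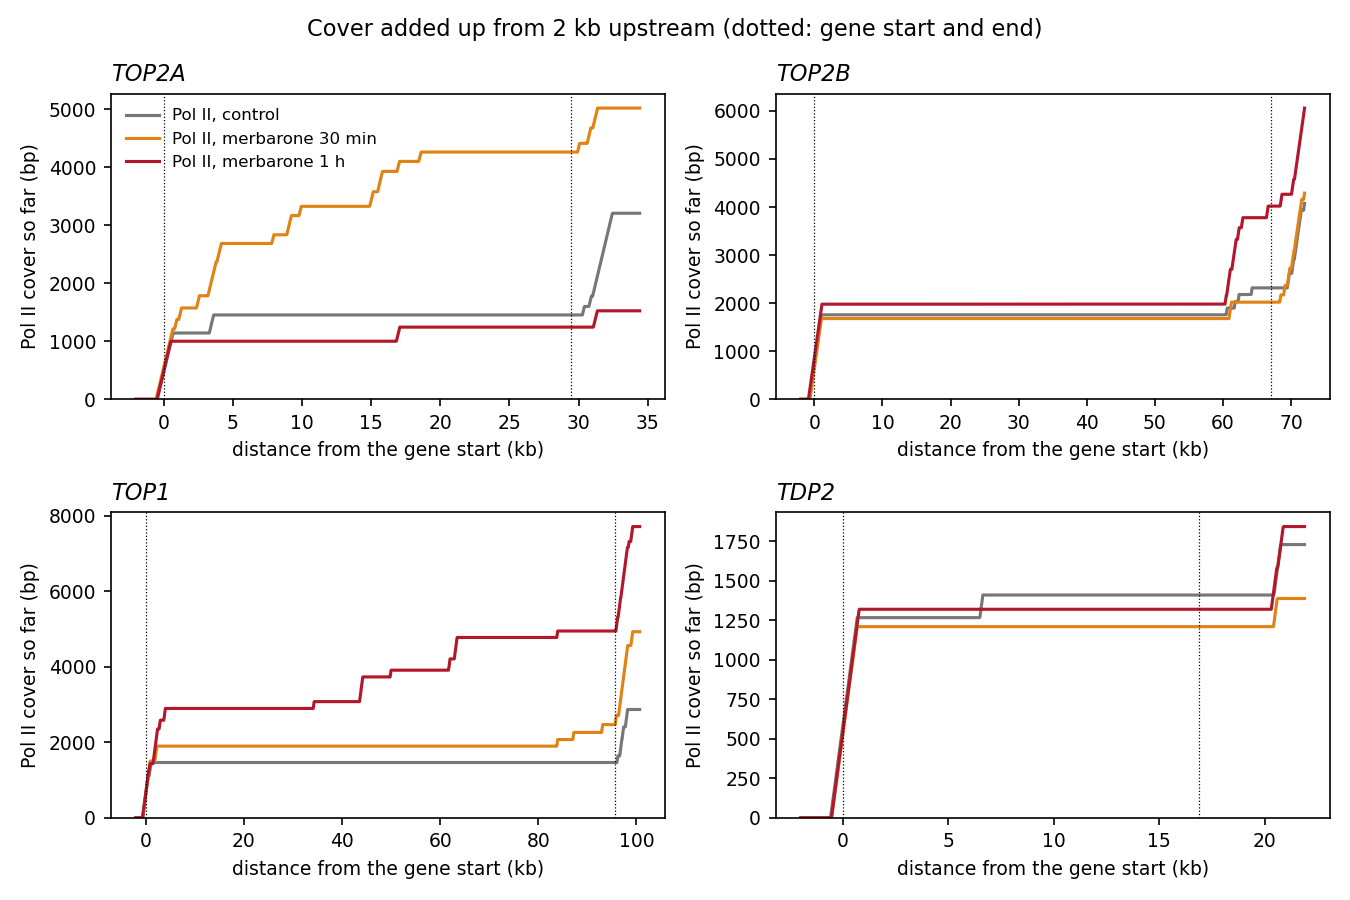
Pol II cover in bp added up along each gene from 2 kb upstream, by distance from the start in kb, for control (grey), 30 min (orange) and 1 h (red) of merbarone; dotted lines mark the gene's start and end. The TOP2A curves part within the body and end at 3206, 5018 and 1525 bp, whereas the TOP1 curves end at 2871, 4932 and 7719 bp.

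TOP1, the gene of topoisomerase I, had more Pol II cover at 30 min and more again at 1 h. Peaks in its window summed to 2871 bp without merbarone, 4932 bp at 30 min and 7719 bp at 1 h, ratios of 1.72 and 2.69. Without peaks under 300 bp the ratio at 30 min was 1.29 and so under 1.5. Among the 50 kb tiles, 9.60% were at least 1.5 times the control at both times, and 32.0% at 1 h. Cover of the body, 94.7 kb long, amounted to 70 bp without merbarone, 967 bp at 30 min and 3517 bp at 1 h, so the change of 3.64 points at 1 h stayed below 10 points.

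The gain along TOP1 was scattered, and lay near both ends at 30 min and along most of its length at 1 h. Close to the start, a peak of 396 bp stood 1874 bp past the start at 30 min, and at 1 h a peak of 919 bp stood there with others of 234 and 312 bp out to 4004 bp. Further in, 3 peaks at 30 min lay from 83767 to 93101 bp past the start. At 1 h 6 peaks lay from 34142 to 83942 bp, the widest of 654 bp, and 1 of them overlapped a peak at 30 min. The longest stretch of body with no peak, 94.6 kb in control, shortened to 81.5 kb at 30 min and 30.1 kb at 1 h. All 9 body peaks at 1 h were absent from control, as were 36092 of the 81816 peaks in the whole 1 h list. Control peaks covered only 70 bp of this body, so there was little for them to overlap.

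Past the end of TOP1 cover rose at both times. Of the 5000 bp there, 1405 bp (28.1%) lay under control peaks, 2461 bp (49.2%) under peaks at 30 min and 2768 bp (55.4%) under peaks at 1 h. The gain at 30 min was 21.1 points, or 7.18 points without peaks under 300 bp, and the gain at 1 h was 27.3 points. The last control peak ended 2533 bp past the gene, while the last peak ended at 3568 bp at 30 min and at 3567 bp at 1 h. Bases that were covered at both times and not in control made up 1084 bp there, and those covered in control and at neither time 28 bp. RefSeq has the antisense gene PLCG1-AS1 overlapping TOP1 on GRCh38, and ChIP-seq does not tell strands apart, so Pol II on the 2 genes cannot be told apart.

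**Figure D4:**
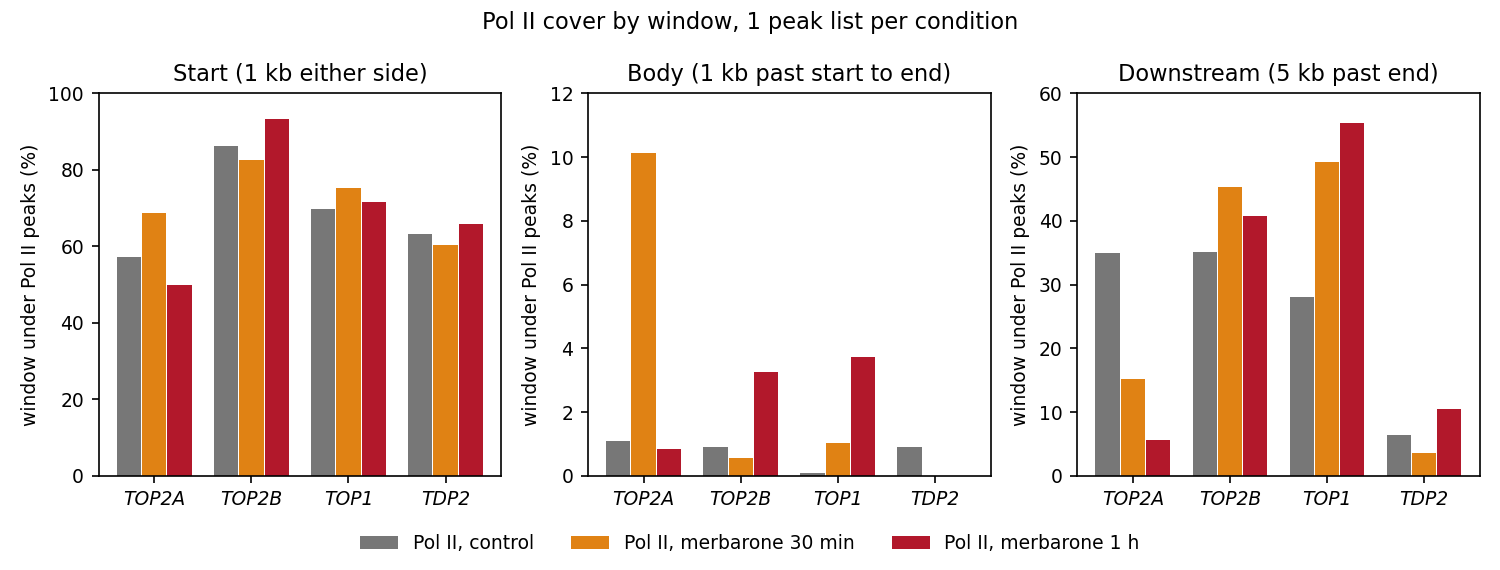
Share of each window under Pol II peaks, in percent, for control (grey), 30 min (orange) and 1 h (red); 1 list per condition, so there are no error bars, and the panels have different scales. Starts reach up to 93.5% and bodies at most 10.1%, and downstream cover is lower at both times at TOP2A and higher at TOP1. At TOP2B it is higher by 10.2 points at 30 min and by 5.64 points at 1 h, and the change at 1 h was -7.52 points with peaks joined within 1 kb.

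TOP2B, the gene of the form made in dividing and resting cells, had no peak through most of its body in every list. It had more cover at its far end at 1 h. Its window held 4077 bp under control peaks, 4290 bp under peaks at 30 min and 6060 bp under peaks at 1 h, ratios of 1.05 and 1.49. The ratio at 1 h passed 1.5 when the 3 lists were brought to like limits, with the smallest gap and the smallest width of the 1 h list applied to all, and was then 1.72. In the body the 3 lists covered 590, 370 and 2149 bp. Almost all of it, 560, 341 and 2040 bp, lay in the last 16501 bp. The middle of the gene had no peak in any list, and the longest stretch without a peak measured 59.5, 59.9 and 59.2 kb in the 3 lists. TOP2B and TOP1 are the long genes of the 4, and at 1 h the body of TOP1 was dotted with peaks, while the middle of TOP2B had none.

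The peaks near the far end of TOP2B were wider at 1 h. At 1 h peaks of 182, 543, 621 and 245 bp stood from 60319 to 62393 bp past the start, and control peaks of 140, 136 and 146 bp lay under them. Those control peaks were among the narrowest in their list, whose smallest peak was 136 bp, and would fall below the smallest peak of the 1 h list. At 30 min 1 peak of 341 bp stood in that stretch. Downstream, control peaks took up 35.2% of the window, those at 30 min 45.4% and those at 1 h 40.8%, and the gain of 10.2 points at 30 min was 7.70 points with like limits. At 1 h the peak that began 3516 bp past the end spanned 2465 bp, over control peaks of 1019 and 431 bp. RefSeq has RARB and MIR4442 overlapping TOP2B on GRCh38, so part of this cover may belong to them, which was not tested.

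TDP2, the repair gene, had no change that reached 10 points in any window or 1.5 times over the whole. Control cover was 0.899% in its body and 6.38% downstream, so neither could fall by 10 points. Its peaks summed to 1728 bp without merbarone, 1387 bp at 30 min and 1842 bp at 1 h, ratios of 0.803 and 1.07. The body held a single peak of 143 bp in control, 6497 bp past the start, and none at 30 min or 1 h. That peak is narrower than the smallest peak of either merbarone list, 150 and 159 bp. Downstream, a peak of 319 bp in control faced 1 peak of 178 bp at 30 min and 2 of 264 and 259 bp at 1 h. RefSeq places ACOT13 within 2 kb upstream of TDP2 and KIAA0319 within 5 kb downstream on GRCh38, and Pol II at either end cannot be assigned to TDP2 alone.

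The spans were also cut along fixed genome tiles of 1 kb, of which 209 lay in the 4 genes. In TOP2A all 11 tiles with a peak at 30 min or in control were covered more at 30 min by at least 10 points. In TOP1 4 of 6 were covered more, in TOP2B 1 of 4 with 2 covered less, and in TDP2 1 of 2 was covered less. Together 16 of 23 tiles were higher at 30 min (69.6%, Wilson interval 49.1 to 84.4) and 3 were lower, against 34.9% higher and 21.7% lower among all 107127 tiles. At 1 h 14 of 23 were higher (60.9%, 40.8 to 77.8) and 4 were lower, against 49.3% higher and 15.0% lower among 118832. The genes did not share a direction at 1 h. TOP1 had 9 of 11 tiles higher and none lower, TOP2B 4 of 7 higher and 1 lower, TOP2A 1 of 3 higher and 2 lower, and TDP2 1 of 2 lower. With like limits no tile of TOP2B or TDP2 was lower at either time, so that 0 of the 4 genes' tiles were lower at 30 min and 2, both in TOP2A, at 1 h. A 1 kb tile with a whole peak of a merbarone list and no control peak counts as higher by definition. The smallest peaks of those lists were 150 and 159 bp. This holds for all tiles too, so the shares describe where peaks were called and are no test. Tiles of 1 gene are neighbours and not independent.

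**Figure D5:**
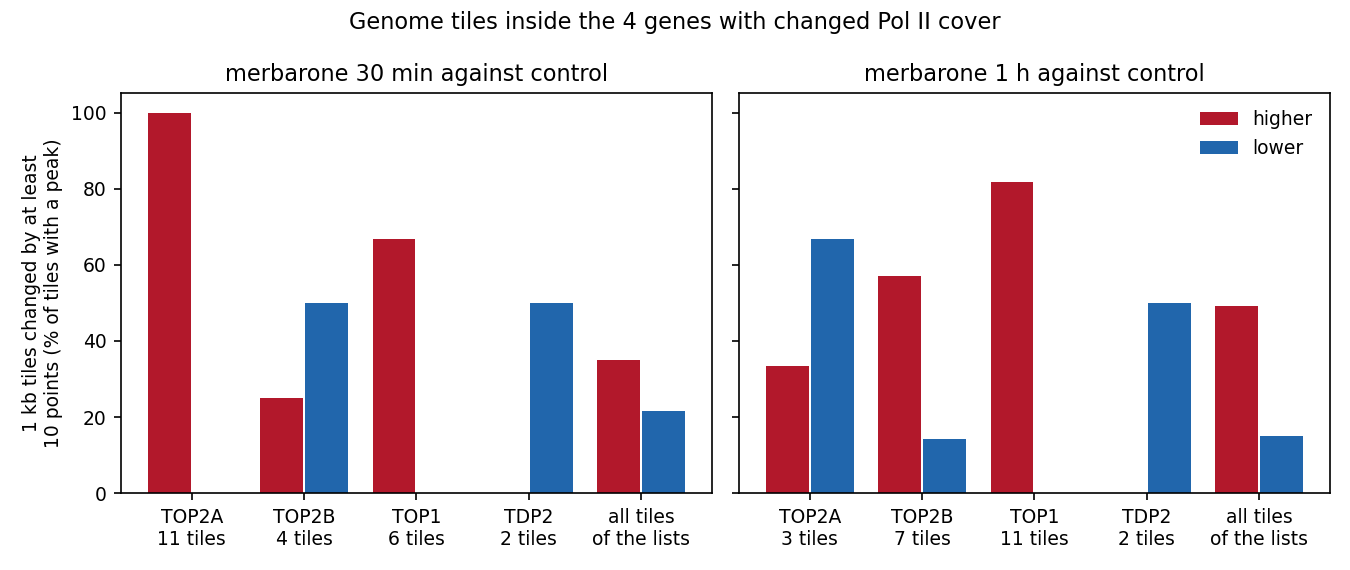
Share of 1 kb genome tiles inside each gene whose Pol II cover was higher (red) or lower (blue) by at least 10 percentage points, among tiles with a peak in either list, with all tiles of the lists on the right of each panel. TOP2A has 11 of 11 tiles higher at 30 min and 2 of 3 lower at 1 h, and TOP1 has 9 of 11 higher at 1 h.

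The TOP2A protein was found on 1 of these genes, and it was not its own. A TOP2A peak of 73 bp, the smallest width in that list, lay at chr3:25705905-25705977 on hg19, from 421 to 493 bp past the start of TOP2B and inside its start peak in all 3 Pol II lists. The other RefSeq start of TOP2B lies 535 bp into the gene on GRCh38, and the span of TOP2B is equally long in both builds. Of 10440 control Pol II peaks of at least 1 kb, 7.56% held a TOP2A peak, and of the 4 start peaks 1 did. The nearest TOP2A peak to the window of the TOP2A gene was 51150 bp away, and that to the window of TOP1 was 2385 kb away. The other peak in these windows lay at chr6:24646135-24646207, from 3998 to 4070 bp past the end of TDP2, on the side of KIAA0319. It overlapped no Pol II peak, and the nearest stood 140 bp away in control and 19 bp away at 1 h.

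Pol II domains elsewhere were searched for those nearest in cover, taking peaks of the 3 lists joined across gaps of up to 5 kb and domains of at least 5 kb. Of 5902 domains, 277 lay within 5 points of TDP2 in all 3 lists, 203 of TOP2B, 180 of TOP1 and 103 of TOP2A. The nearest to TOP2A among domains of 0.5 to 2 times its length lay at chr13:76372390-76389204 and had cover of 2.58%, 11.2% and 2.15% in the control, 30 min and 1 h lists. The span of TOP2A itself had 3.40%, 12.7% and 2.63%. The nearest to TDP2, at chr11:86133098-86146979, had 4.52%, 4.49% and 4.15%, against 4.87%, 4.0% and 4.58% in TDP2. A domain holds no stretch over 5 kb without a peak of some list, so none could have the layout of any of the 4 genes. No list had a peak in the last 10.8 kb of the TOP2A body or in a stretch of 10.3 kb in the TDP2 body. At 1 h the longest stretch of body without a peak was 30.1 kb in TOP1 and 59.2 kb in TOP2B. The search thus compared cover alone and was a poor guide, most of all for these long genes, whose nearest domains were poor matches. The nearest to TOP2B, at chr4:95460207-95498613, had 3.00%, 2.48% and 10.3%, against 2.37%, 2.05% and 4.70% in TOP2B. That to TOP1, at chr8:118912687-118974579, had 5.90%, 6.36% and 4.40%, against 0.881%, 1.97% and 4.5% in TOP1, and so was lower at 1 h than in control where TOP1 was higher. No gene was assigned to these places.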

How the data were processed

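Pol II and TOP2A were mapped by ChIP-seq in 13 of the 16 libraries, and the values the authors deposited give where every peak begins and ends, in bp of hg19. The submitters' processing notes name Bowtie 1.2.0, MACS2 and deepTools 2.4.1. The sources used here give no MACS2 version, threshold or background library, nor how libraries were merged into 1 list. Depth is unknown and cannot be told apart from the condition. The smallest peaks were 136, 150 and 159 bp in control, at 30 min and at 1 h.

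Positions in the lists count from 0, and those printed count from 1. Gene spans on hg19 came with the choice of genes. Neighbouring genes and promoters came from RefSeq GRCh38.p14, and all 4 symbols matched. No hg19 annotation was used, so other pathway genes, such as TOP3A and TDP1, were not analysed here. Windows were the start (1 kb either side), the body (from 1 kb past the start) and 5 kb downstream. Genes, windows and alternatives were set with earlier results of these data known, and the cover ratios, 5 kb and 50 kb tiles, start background and motifs were set after these values were seen. Every gene is named. The functions for cover, tiles and offsets were tested on simulated data and against bedtools 2.31.1, and all 10 checks passed. Python 3.11.15, numpy 2.4.6, scipy 1.17.1 and matplotlib 3.10.9 were used.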

Additional observations from a re-analysis of the deposited data

How the results depend on the processing

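Each Pol II value was recomputed with like limits (peaks up to 37 bp apart joined and peaks under 159 bp left out in every list), without peaks under 300 bp, with peaks shortened by their list's excess smallest width, and with peaks joined within 1 kb. Windows and tiles were also resized. A change in cover counted as moved when it crossed 10 points or left the Wilson interval of the cover taken per kb. Of 48 alternative values 45 stayed for starts, 47 of 48 for bodies, 34 of 40 downstream, 37 of 60 for tile counts and 27 of 32 for cover ratios, which were added after seeing the data. A change that stayed could still shift by several points or turn sign, since the Wilson interval is wide over a window of few kb. The TOP2A body at 30 min stayed at 3.92 points without peaks under 300 bp, against 9.05. The counts therefore do not measure how stable the values were. The sign turned in 4 values for starts, 2 for bodies and 3 downstream, and all but 1 of these were changes under 10 points. At 1 h they were the TOP1 start (-7.85 points without peaks under 300 bp and -0.40 with shortened peaks, against 1.90), the TOP2A start (1.80 within 500 bp, against -7.10), and downstream of TOP2B (-7.52 with peaks joined, against 5.64) and TDP2 (-6.38 without peaks under 300 bp, against 4.08). At 30 min they were the TOP1 start (-1.60 with peaks joined, against 5.40) and the TOP2B body (0.52 with like limits and without peaks under 300 bp, against -0.33). Without peaks under 300 bp the values at 30 min were 3.55 points at the TOP2A start, 7.18 points downstream of TOP1 and 5.14 points downstream of TOP2B, and the ratios were 1.29 for TOP1 and 1.03 for TOP2A; the ratio of TOP2B at 1 h was 1.53. With like limits they were 7.70 points downstream of TOP2B at 30 min and a ratio of 1.72 for TOP2B at 1 h. With shortened peaks they were 8.10 points downstream of TOP2B and a ratio of 1.49 for TOP2A, both at 30 min. With peaks joined within 1 kb the TOP2A body gained 18.2 points at 30 min. Other windows gave 4.70 points at 30 min within 500 bp of the TOP2A start, 11.9 points at 1 h within 2 kb of the TOP1 start, 12.3 points at 1 h in the first 2 kb past TOP2B, and 1.2 points at 30 min in the first 2 kb past TOP2A, where the sign turned since most of the control peak lies further out. Tiles changed by at least 20 points numbered 10 higher and 1 lower at 30 min and 1 lower at 1 h. Tiles of 500 bp gave 5 lower at 30 min and 22 higher at 1 h, and like limits gave 0 lower at 30 min and 2 at 1 h. The TOP2A peak past TDP2 was counted on Pol II when 1 kb was allowed (1 peak). The cause of the other moves was not tested. No paired analysis was possible because each condition has a single peak list, and for the same reason no library could be left out.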
